A study of Mus musculus with 37 samples.

Results

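The 10 genes described here are Eltd1, Kitl, Adamts9, Meox2, Pecam1, Cdh5, Kdr, Flt1, Tek and Vegfa, a set of endothelial and angiogenic genes whose levels in brown fat may follow that of Ahr, the aryl hydrocarbon receptor gene. Eltd1, Kitl, Adamts9 and Meox2 were chosen by their link to Ahr in these same arrays, so their relation to Ahr is given below as a description without a test. The other 6 were chosen by function, as markers of endothelium or as parts of the VEGF and angiopoietin systems. These 6, and the gene lists used below, were nonetheless chosen with earlier results of these data known, which limits every test and count over them. All 10 were found by symbol, each with 1 probe set, among 24657 gene symbols and 41155 probe sets.

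Brown adipose tissue was profiled in male mice of 35 BXD strains, which are inbred lines derived from crosses of C57BL/6J and DBA/2J, and of both parental strains. Mice were 29 weeks old, ate chow throughout life, were fasted overnight and were perfused before the tissue was frozen. RNA of about 5 mice per strain was pooled evenly and run on 1 Affymetrix array, so strains are the units and the spread among mice of a strain was not measured. The deposited unit is a score, for which each array had been set to mean 8 and SD 2 over its probe sets, and the log base behind it is not given.

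Endothelial cells line every blood vessel, and brown fat is among the most densely vascularised tissues. VEGF-A from surrounding cells acts on endothelial VEGF receptors, while angiopoietins act on the Tie receptors that keep vessels quiescent. AHR is a ligand-activated transcription factor that also takes part in vascular development, and the transcript of Ahr is found in many cell types, endothelium among them.

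All 10 genes lay above background, defined as the 95th percentile of 1128 olfactory receptor probe sets, a score of 7.94. Ahr ranged from 8.70 in BXD89 through a median of 9.428 to 10.245 in BXD96. Its SD over strains was 0.35, larger than that of 86.3% of the probe sets above background. The levels formed a continuous spread, with BXD89 and BXD56 at the low end and BXD96 and BXD95 at the high end.

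Eltd1, an adhesion G protein-coupled receptor of endothelium, ranged from 11.36 in BXD101 through a median of 11.76 to 12.29 in BXD96. Kitl, the ligand of the Kit receptor, ranged from 10.12 in BXD56 through 10.62 to 11.035 in BXD85. BXD56 and BXD101 held the 2 lowest levels of Eltd1 and of Kitl. Adamts9, a secreted metalloprotease, had the widest range of the 10 genes, from 10.24 in BXD56 through 11.01 to 11.79 in BXD96. Meox2, a homeobox transcription factor of mesoderm and vessels, ranged from 10.44 in BXD87 through 11.05 to 11.445 in BXD65. BXD56 and BXD101 were also the 2 lowest strains for Adamts9, whereas Meox2 had its extremes in other strains.

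Pecam1, an adhesion molecule of endothelial junctions, ranged from 11.18 in BXD51 through a median of 11.49 to 11.78 in BXD85. Cdh5, the cadherin of endothelial junctions, ranged from 13.43 in BXD56 through 13.81 to 14.10 in BXD80. Both varied little, with SDs of 0.17 and 0.16. Kdr, the main signalling receptor for VEGF-A, ranged from 11.37 in BXD56 through 11.87 to 12.32 in BXD85. Flt1, a VEGF receptor that also exists as a soluble trap for the ligand, ranged from 10.40 in BXD56 through 10.72 to 11.155 in BXD85. For both VEGF receptors the lowest strain was BXD56 and the highest BXD85. Tek, the receptor for angiopoietins, ranged from 10.50 in BXD45 through 10.84 to 11.255 in BXD85. Vegfa, the ligand of Kdr and Flt1, ranged from 12.56 in BXD56 through 12.865 to 13.13 in BXD49. Vegfa had the smallest SD of the 10 genes, 0.14.

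Vessel content was gauged by an index, the mean z score over strains of 20 endothelial markers that are not among the 10 genes. All 20 lay above background, and Eng was the brightest. The mean r between these markers was 0.37, so the index is an imperfect measure. The index ran from -1.53 in BXD56 through 0.05 to 1.37 in BXD85. In bulk tissue, fewer endothelial cells and less endothelial RNA per cell cannot be told apart, so the index stands for endothelial transcript content only. Across all transcripts, limma related 1207 of 41135 to the index at an adjusted p under 0.05, of which 707 had a positive slope. This count was 1908 with a skeletal muscle score as a covariate. It was 451 with a macrophage score, an alternative added after seeing the data.

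Of the genes chosen by function, 5 of 6 rose with the index, against 1.72% of all transcripts. Cdh5 followed it most closely (r = 0.86, rho = 0.87, n = 35, limma adjusted p = 6.21e-06), and its score rose by 0.14 ± 0.02 (SE) per SD of the index. Pecam1 was close behind with r = 0.84 (rho = 0.87, adjusted p = 1.30e-05). The VEGF receptors came next, Kdr with r = 0.73 (rho = 0.67, adjusted p = 0.00034) and Flt1 with r = 0.62 (rho = 0.51, adjusted p = 0.00829). Tek had r = 0.54 (rho = 0.46, adjusted p = 0.0424), and this call was lost on leaving out any 1 of 13 strains. Vegfa did not pass the test, with r = 0.13 (rho = -0.04, adjusted p = 0.809). Its r turned to -0.04 without BXD56, so the name endothelial gene is not borne out for Vegfa by its relation to these markers.

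Permutation of strains gave two-sided p values of 1e-05 for r of Cdh5, Pecam1 and Kdr with the index, the smallest that 100000 permutations can give, and of 0.00012 for Flt1, 0.00078 for Tek and 0.441 for Vegfa. Without the 2 strains farthest from the median of the index, r was 0.83 for Cdh5, 0.81 for Pecam1, 0.63 for Kdr, 0.49 for Flt1, 0.41 for Tek and -0.20 for Vegfa. Flt1 and Tek no longer passed the adjusted threshold without those strains, BXD56 and BXD85. The index was set against all 10 genes and Ahr, and Ahr against all 10 genes, with adjusted p taken over all transcripts.

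The 4 genes chosen by their Ahr link also followed the index. Adamts9 had r = 0.84, Eltd1 and Kitl each r = 0.65 and Meox2 r = 0.62. Adamts9 ranked first of all 41135 transcripts by p against the index. Because Ahr and the index were themselves related, a choice by Ahr favours genes that follow the index, and these 4 values are a description. Kitl was no longer called without BXD56 and BXD85 (r = 0.49), nor was Meox2 with the macrophage score as a covariate (r = 0.54), an alternative added after seeing the data.

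Ahr and the vessel index were positively correlated over the 35 strains (r = 0.48, 95% confidence interval 0.18 to 0.70, permutation p = 0.00326). Spearman rho was 0.44 with a permutation p of 0.00827. Without BXD56 and BXD85, which held the extremes of the index, r fell to 0.35 with a permutation p of 0.0485. As 1 of all transcripts set against the index, Ahr missed the adjusted threshold (limma adjusted p = 0.0668), and it passed on leaving out BXD69 or BXD95, with both parents included and with dim transcripts left out. Strains with more endothelial transcript thus tended to have more Ahr transcript, with wide scatter.

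Against Ahr, limma called 0 of 41154 transcripts at an adjusted p under 0.05, so 0 of the 6 genes chosen by function passed, against 0% of all transcripts. At an unadjusted p under 0.05 there were 3388 transcripts, 1776 of them with a positive slope. By that measure 5 of the 6 had a positive slope, against 4.32% of all transcripts. Tek had r = 0.53 with Ahr (rho = 0.46, adjusted p = 0.33), Vegfa r = 0.51 (rho = 0.37, adjusted p = 0.381) and Flt1 r = 0.50 (rho = 0.44, adjusted p = 0.349). The junction genes were lower, Cdh5 with r = 0.41 (rho = 0.38, adjusted p = 0.487) and Pecam1 with r = 0.31 (rho = 0.28, adjusted p = 0.655). Kdr stood between them with r = 0.45 (rho = 0.41, adjusted p = 0.413). Permutation p for these r ran from 0.00107 for Tek to 0.0713 for Pecam1. Without BXD96 and BXD89, the strains farthest from the median of Ahr, r was 0.47 for Tek, 0.37 for Vegfa, 0.51 for Flt1, 0.45 for Cdh5, 0.31 for Pecam1 and 0.37 for Kdr. The order of the 6 genes by r thus changed with these strains, and Vegfa was high in it by r over all 35 strains but not by rho.

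For the genes chosen by their Ahr link, r with Ahr was 0.69 for Kitl, 0.66 for Eltd1 and Adamts9, and 0.44 for Meox2. By p against Ahr, Kitl, Adamts9 and Eltd1 held the first 3 places of all transcripts, which is how they came to be chosen, and Meox2 was at place 696. The next places went to Niacr1 and 2310030G06Rik, both with negative slopes (r = -0.62 and -0.63). Per SD of Ahr, the score was higher by 0.26 ± 0.05 (SE) for Adamts9, 0.15 ± 0.03 for Eltd1, 0.13 ± 0.03 for Kitl and 0.12 ± 0.04 for Meox2.

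**Figure D1:**
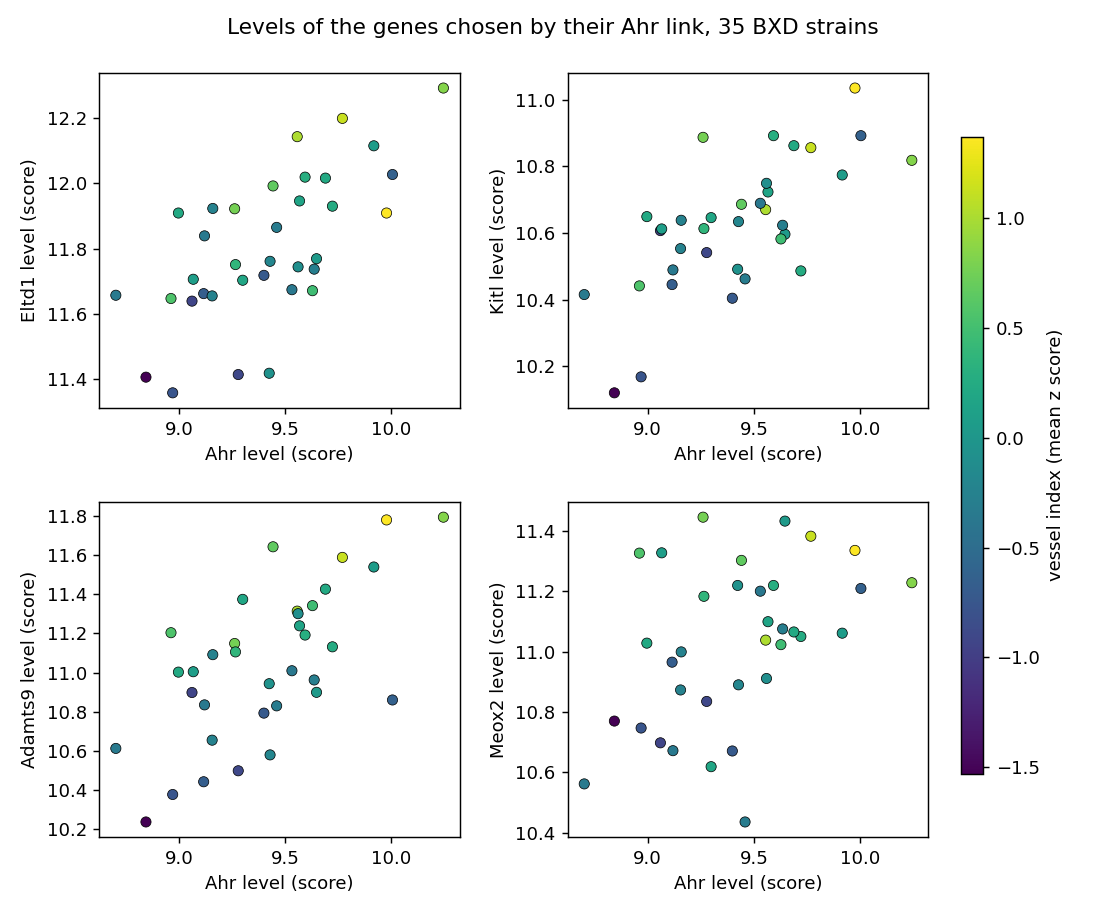
Each panel plots the score of 1 gene chosen by its Ahr link (vertical axis) against the score of Ahr (horizontal axis) in 35 BXD strains, 1 point per strain, coloured by the vessel index. BXD56, with the lowest index (-1.53), sits at the bottom left for Kitl and Adamts9, and Meox2 has the lowest r of the 4 (0.44).

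With the vessel index in the same model, the Ahr slopes of the chosen genes were smaller, by unequal amounts. Kitl kept 70.5% of its slope per SD of Ahr, and its partial r was 0.56. Eltd1 kept 67.9%, with a partial r of 0.52. Adamts9 kept 49.6%, with a partial r of 0.53. Meox2 kept 41.5%, and its partial r of 0.20 was the lowest of the 4, with a slope of 0.05 ± 0.04. With single strains left out, the partial r of Meox2 ran from 0.09 without BXD95 to 0.27 without BXD69, while that of Kitl stayed between 0.45 and 0.61, that of Eltd1 between 0.42 and 0.57 and that of Adamts9 between 0.48 and 0.58. With an index from Pecam1 and Cdh5 instead, partial r was higher, at 0.62 for Kitl, 0.60 for Adamts9, 0.58 for Eltd1 and 0.27 for Meox2. The shares of slope kept thus depend on the index. As these genes were chosen by their Ahr link, those shares describe them and test nothing.

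The shares of variance gave the same order. In Kitl, Ahr alone accounted for 47.0% of the variance over strains and the index alone for 42.6%, while both together accounted for 60.5%. In Eltd1 the shares were 43.3%, 42.7% and 58.0%. Adamts9 differed in that the index alone already accounted for 71.1%, to which Ahr added 8.16 percentage points. In Meox2 Ahr added 2.54 percentage points to the 38.4% of the index.

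Among the genes chosen by function, limma called 0 of 6 for Ahr beside the index, and 0 of 41134 transcripts in all, which is 0%. At an unadjusted p under 0.05 there were 2322 transcripts, and 2 of the 6 genes had a positive slope, against 3.11% of all transcripts. These were Vegfa, whose partial r of 0.51 was as high as its plain r (unadjusted p = 0.0036, adjusted p = 0.863), and Tek with a partial r of 0.36 (unadjusted p = 0.0421, adjusted p = 0.869). The junction genes had partial r of -0.01 for Cdh5 and -0.21 for Pecam1. Kdr and Flt1 had partial r of 0.16 and 0.29. With single strains left out, the partial r of Tek ran from 0.24 without BXD69 to 0.42, that of Flt1 from 0.16 without BXD95 to 0.37, that of Kdr from 0.11 to 0.22 and that of Vegfa from 0.45 to 0.56, while that of Pecam1 ran from -0.27 to -0.12 without BXD84 and that of Cdh5 changed sign, from -0.08 without BXD62 to 0.07 without BXD96. Turned around, the index beside Ahr was called for 3 of the 6 genes chosen by function, Pecam1, Cdh5 and Kdr, against 1.1% of all transcripts with a positive slope.

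**Figure D2:**
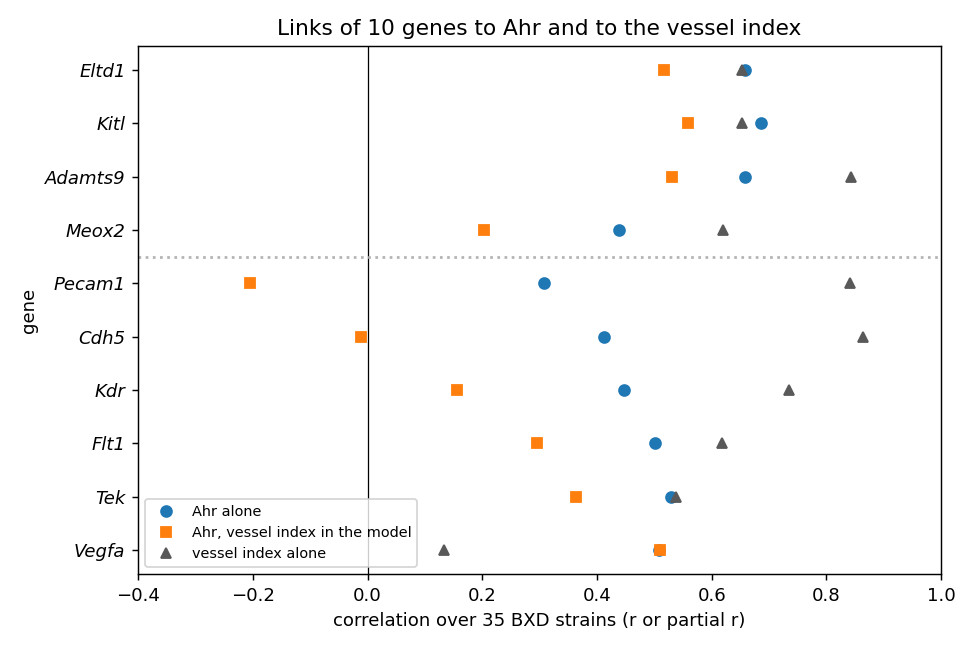
Correlation over 35 BXD strains (horizontal axis) of each of the 10 genes (vertical axis) with Ahr alone, with Ahr when the vessel index is in the model, and with the vessel index alone, with genes chosen by their Ahr link above the dotted line. Cdh5 and Pecam1 have the highest r with the index among the genes below the line (0.86 and 0.84) and the lowest partial r with Ahr (-0.01 and -0.21), while Vegfa has 0.13 with the index and 0.51 with Ahr in both models.

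The 10 genes form 45 pairs, of which 44 had a positive r. The 6 pairs among the genes chosen by Ahr were not tested, and their r ran from 0.39 for Eltd1 with Meox2 to 0.74 for Kitl with Adamts9. Of the other 39 pairs, 6 were called in both directions, that is at a limma adjusted p under 0.05 with either gene as the covariate. For pairs of all transcripts, the share called in this way or with a positive r was not computed, so these pair counts are a description. Pecam1 with Cdh5 was the closest pair (r = 0.83, rho = 0.83, higher adjusted p = 5.65e-05). The other 5 joined Adamts9 to Cdh5 (r = 0.74), Pecam1 (r = 0.66) and Kdr (r = 0.65), and Meox2 to Cdh5 (r = 0.65) and Pecam1 (r = 0.63). The count was 10 with both parents included and 2 with the macrophage score as a covariate, an alternative added after seeing the data. Adamts9 and Meox2 were chosen by their Ahr link, and all 6 genes chosen by function had a positive r with Ahr. That choice can therefore favour pairs that join the 2 kinds of gene. None of the 9 pairs with Vegfa was called, and their r ran from -0.04 with Pecam1 to 0.36 with Kitl.

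Taken as the covariate, Cdh5 was followed by 6 of the 9 other genes, against 1.59% of all transcripts with a positive slope. Pecam1 was followed by 4 of 9, against 1.81%. Adamts9 was followed by 4 of the 6 genes chosen by function, against 1.12%, and Meox2 by 2 of 6, against 0.663%. As with the pairs, the choice by Ahr can favour the counts for genes chosen by it. The r behind these counts varied widely, for Cdh5 from 0.03 with Vegfa to 0.83 with Pecam1. Kitl was followed by 1 of 6, Flt1, against 0.165%, and Kdr by 1 of 9, Adamts9, against 0.0486%. Eltd1 was followed by 0 of 6 in limma, against 0.107%, and by 5 of 6 at an unadjusted p under 0.05, against 6.59%. Flt1 was followed by 0 of 9, against 0.0316%, and by 6 of 9 at the unadjusted p, against 4.69%. Tek was followed by 0 of 9 and Vegfa by 0 of 9, each against 0%. At the unadjusted p Tek was followed by 7 of 9, against 5.68%, and Vegfa by 1 of 9, against 3.21%.

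With the index taken out, r of the pairs went both ways, from -0.30 for Meox2 with Kdr to 0.52 for Eltd1 with Kitl. The median r over the 45 pairs was 0.48, and it was 0.03 beside the index and 0.33 beside Ahr. Kitl with Vegfa was at 0.36 with and without the index. Adamts9 had r beside the index of 0.47 with Kitl and 0.43 with Eltd1. Pecam1 with Cdh5 kept 0.39, while Eltd1 with Meox2 was at -0.03.

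**Figure D3:**
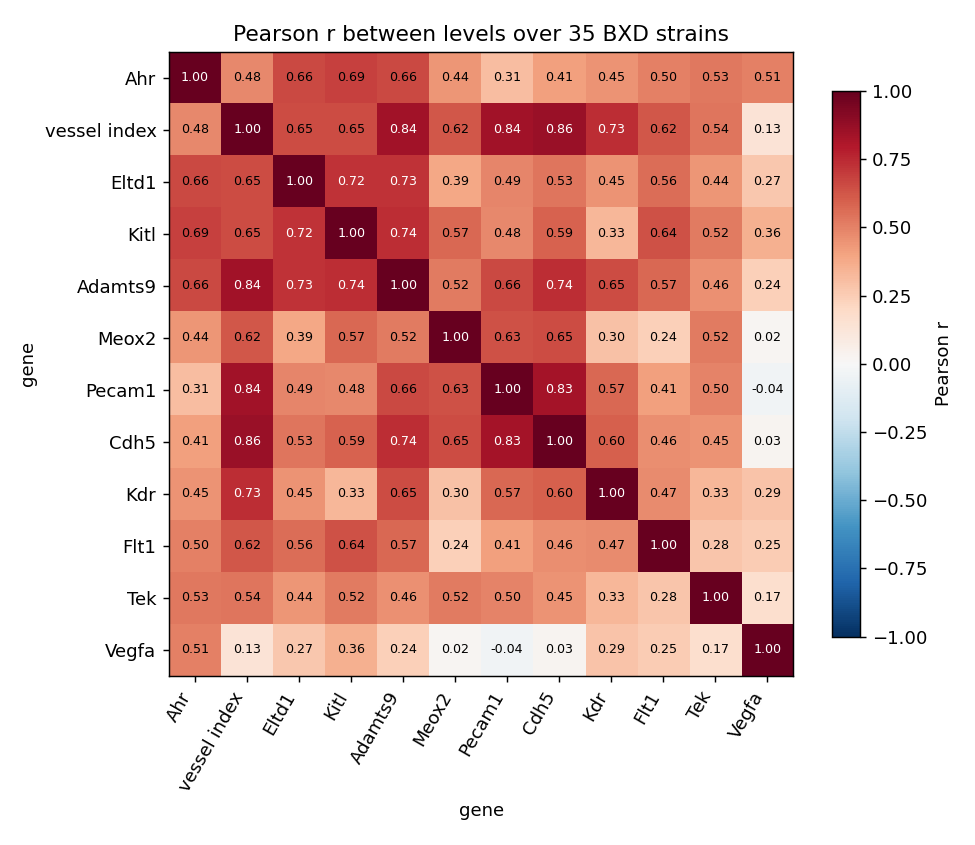
Pearson r over 35 BXD strains between the levels of Ahr, the vessel index and the 10 genes (both axes), with red for positive and blue for negative values. The Vegfa row is pale except against Ahr (0.51), and Pecam1 with Cdh5 has the highest r between any 2 of the 10 genes (0.83).

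The transcripts most like each gene in level over the 35 strains are given by r, with Ahr and the 10 genes themselves left out of the search, and say nothing of shared function or control. For Eltd1 they were Cd36 (r = 0.87), the fatty acid translocase, Gpr116 (r = 0.80) and Pkp4 (r = 0.73). For Kitl they were Rbm39 (r = 0.77), Mat2a (r = 0.75) and Hnrnpk (r = 0.75), which encode nuclear RNA-binding proteins and an enzyme of methionine metabolism. For Adamts9 they were Adcy4 (r = 0.83), the endothelial adhesion gene Vcam1 (r = 0.79) and Ets1 (r = 0.79). Meox2 was most like Ogt (r = 0.81), C230081A13Rik (r = 0.80) and Myo1d (r = 0.75).

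Outside the 10 genes, Pecam1 was most like Prkch (r = 0.87), Cd93 (r = 0.83) and Myh9 (r = 0.83), and Cdh5 like Itga6 (r = 0.83), Rasip1 (r = 0.82) and Nedd9 (r = 0.81). Itga6 also led for Kdr (r = 0.76), before Itpkb (r = 0.75) and Ets1 (r = 0.75). Flt1 was most like Slc9a3r2 (r = 0.75), Podxl (r = 0.74) and Hif1a (r = 0.72), the last a subunit of the hypoxia-inducible factor. Tek was most like Cflar (r = 0.70), Mmrn2 (r = 0.65) and Nup153 (r = 0.64), and Vegfa like Ubtf (r = 0.65), Ankhd1 (r = 0.61) and Spred2 (r = 0.61). Outside the 10 genes, Ahr itself was most like Bptf (r = 0.68), Cflar (r = 0.65) and Rabgap1 (r = 0.64).

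Genes of vessels outside the 10 were described by list. Of the 20 index genes, 0 were called for Ahr by limma and 8 had an unadjusted p under 0.05, all with positive slopes, against 4.32% of all transcripts, led by Eng (r = 0.56), Arhgef15 (r = 0.53) and Emcn (r = 0.50). Their median r with Ahr was 0.28, beside -3.88e-06 over all transcripts. Of 7 other VEGF ligands and receptors, 0 were called for the index and 0 reached the unadjusted p, and Pgf lay at background. Of the 2 angiopoietin genes, neither Angpt1 (r = 0.03) nor Angpt2 (r = 0.30) was called for the index, 0 reached the unadjusted p, and Angpt2 lay at background. Among 8 Notch and ephrin genes of vessels, 3 rose with the index, against the 1.72% of all transcripts with a positive slope, Ephb4 (r = 0.65), Notch4 (r = 0.63) and Efnb2 (r = 0.58). Among 8 genes of pericytes and vascular smooth muscle, 3 rose with the index, against the same 1.72%, Pdgfrb (r = 0.67), Notch3 (r = 0.63) and Acta2 (r = 0.60), and Rgs5 was the brightest. The mean z score of these 8 had r = 0.40 with Ahr, 0.61 with the index, 0.63 with Adamts9 and 0.50 with Kitl. For Ahr 0 of the 8 were called and 2 reached the unadjusted p with positive slopes, against 4.32%. The relation to Ahr was thus not limited to endothelial markers. Of 7 lymphatic genes, 0 were called and 0 reached the unadjusted p for the index.

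Classical AHR target genes were mostly dim. Of 7 found, 3 lay above background, Tiparp, Cyp1b1 and Cyp1a1, and 0 were called for Ahr while 2 reached an unadjusted p under 0.05, Ahrr (r = 0.46) and Cyp1a1 (r = 0.34), against 4.32% of all transcripts with a positive slope. The score of the 3 genes above background had r = 0.47 with Ahr, higher than any of the 3 alone. Tiparp had r = 0.22, Cyp1b1 r = 0.15 and Cyp1a1 r = 0.34. These 3 did not rise and fall together (mean r between them -0.11), so their score is no single measure of AHR activity. Of these 7, limma called Cyp1b1 alone for the index (r = 0.55, adjusted p = 0.0246), against 1.72% of all transcripts with a positive slope. Of the 4 partners and chaperones of AHR, 0 were called by limma and 0 reached the unadjusted p for Ahr or the index, and Arnt had r = 0.05 with Ahr. Of 11 hypoxia genes, 0 were called for Ahr and 3 reached the unadjusted p, Hif1a (r = 0.48), Pdk1 (r = -0.43) and Egln3 (r = -0.35), where 3388 of all 41154 transcripts did. Pdk1 and Egln3 fell with the index (r = -0.77 and -0.68), as did 500 of all 41135 transcripts. For the index 4 other hypoxia genes had a positive slope at the unadjusted p, as did 2840 of all transcripts, and 0 of these 4 passed the adjusted threshold in limma. Of 7 Kit and mast cell genes, 0 were called for Ahr and 1 reached the unadjusted p, where 3388 of all 41154 transcripts did. That was Kit, the receptor of the Kitl protein (r = -0.33, limma unadjusted p = 0.0455, adjusted p = 0.593). Its partial r with Ahr beside the index was -0.19. The others had r with Ahr from -0.09 for Ms4a2 to 0.09 for Tpsb2. Of the 7 genes, 4 lay at background, and the score of the other 3, Kit among them, had r = -0.47 with Kitl. For the index 0 of the 7 were called by limma and 1 reached the unadjusted p, Kit (r = -0.37), where 6036 of all 41135 transcripts did.

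Markers of other cell types moved with some members, and their part in those relations was not tested other than by adding the muscle, macrophage and fibroblast scores to the fit. A list is scored by the mean z score of its genes above background, and its level is their mean score. The macrophage list, with Cd163 at background and Lyz2 the brightest of the other 6, had r = 0.51 with the index, 0.61 with Pecam1 and 0.04 with Ahr. Its level ran from 9.13 in BXD48 to 11.12 in BXD61. The fibroblast list, with Dcn the brightest of 7, had r = 0.59 with Pecam1, 0.44 with Meox2 and 0.08 with Ahr. Of these lists, 3 of 7 macrophage genes and 1 of 7 fibroblast genes rose with the index, against 1.72% of all transcripts. The skeletal muscle list, with Acta1 the brightest of 8, ran in level from 10.0009 in BXD65 through 12.69 to 13.70 in BXD97, and had r of -0.44 with Kitl and -0.36 with Flt1. By limma 0 of its 8 genes were called for the index and 0 reached the unadjusted p.

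The brown adipocyte list, with Ucp1 the brightest of 7, had r = -0.45 with Tek, -0.38 with Meox2, -0.35 with Pecam1, 0.36 with Flt1 and 0.09 with Ahr. For the index limma called 0 of its genes, and 2 reached the unadjusted p, both with negative slopes. Of all 41135 transcripts 6036 reached it, 2840 of them with a positive slope. Of the 5 white adipocyte genes, Lep and Nnat rose with the index (r = 0.63 and 0.59) and Retn fell (r = -0.56), where 707 of all 41135 transcripts rose and 500 fell. Of 6 lymphocyte genes only Cd3e lay above background, with r = 0.37 with Ahr. For the index limma called 0 of the 6, and 3 reached the unadjusted p with positive slopes, as did 2840 of all 41135 transcripts. The red cell list, with 2 of 4 genes found above background, had r = 0.19 with Ahr and 0.28 with the index. The liver list, with Ttr the brightest of 3 genes above background of 6, had r = 0.03 with Ahr and 0.16 with the index, and its level reached 13.14 in BXD70 against a median of 8.13. In these last 2 lists limma called 0 genes for the index and 0 reached the unadjusted p.

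Ahr and Meox2 lie near each other on chromosome 12, with 8 protein-coding genes between them in the RefSeq annotation. The paper names both among the candidate genes of its movement locus there that have protein-coding changes in the BXD strains. Strains can thus share parental alleles at both genes. Genotype was not used here, and its part in the r of Meox2 with Ahr was not tested. All 8 were in the table and 4 lay above background. Of these, Tspan13 had r = 0.74 with Meox2, 0.75 with the index and 0.22 with Ahr. Bzw2, Ankmy2 and Sostdc1 had r with Ahr of -0.26, -0.36 and -0.10. Of these 4, Tspan13 alone had a positive r with Ahr.

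Sequence before annotated transcript starts was searched for GCGTG, the core letters of the motif bound by AHR with its partner ARNT, on both strands. RefSeq windows of 250 bases (GRCm38.p6) matched 8 of the 10 genes, all but Pecam1 and Cdh5. The core was found in 5 of them, beside 30.9% of the 27025 genes and 28.2% of the 32851 windows in the table. It was found for Kitl, Adamts9, Kdr, Flt1 and the second of the Vegfa windows, and not for Eltd1, Meox2 or Tek. Of the 9 windows of these genes, 6 overlap the gene model in RefSeq, among them each of the 5 that hold the core, so these are not all sequence outside the gene. A match describes these letters only. Each stretch is shown on the gene's strand, 5′ to 3′, with the core in capitals, since these genes are the members in which it occurs.
Kitl, chr10:100015749-100015773, plus strand: agggaaggagGCGTGtccggagctg
Adamts9, chr6:92943564-92943588, minus strand: cctcctggagGCGTGcacctagggt
Kdr, chr5:75978572-75978596, minus strand: gggggagtggGCGTGggaaaccggg
Kdr, chr5:75978530-75978554, minus strand: ccagtgggggGCGTGgccggacgca
Flt1, chr5:147726181-147726205, minus strand, core on the other strand: agcgccaccgCACGCgcgctctggc
Vegfa, chr17:46025367-46025391, minus strand: gccctggagtGCGTGcccacgtcag

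For Eltd1, named Adgrl4 in RefSeq, the whole window of 250 bases is shown as that of a gene chosen by its Ahr link in which the core letters do not occur.
Eltd1, chr3:151437632-151437881, plus strand: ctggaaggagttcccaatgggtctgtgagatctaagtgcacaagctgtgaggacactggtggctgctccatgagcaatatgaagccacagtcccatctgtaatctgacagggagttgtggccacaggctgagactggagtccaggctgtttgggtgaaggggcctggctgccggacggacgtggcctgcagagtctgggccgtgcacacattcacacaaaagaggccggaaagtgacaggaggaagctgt

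In the parental strains, 1 array each, Ahr was at 9.13 in both. All 10 genes were higher in DBA/2J than in C57BL/6J, a direction found for 51.8% of all probe sets, by a median of 0.38. The largest difference was 0.71, for Kitl, and the smallest 0.14, for Vegfa. C57BL/6J lay below all 35 BXD strains for Pecam1, Cdh5 and Tek, which was so for 3.46% of all probe sets. The vessel index on the BXD scale was -1.16 in C57BL/6J and 0.04 in DBA/2J. With 1 array per parent these differences have no replicate check, and the liver genes above background were also higher in DBA/2J, by a median of 2.58.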

How the data were processed

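Brown fat RNA (about 5 mice pooled per strain, 100 ng amplified) was measured on 37 Affymetrix arrays, 35 BXD strains and 2 parents. The submitters' processing notes name Affymetrix Expression Console. The deposited values are a score, set by the authors to mean 8 and SD 2 within each array. The tests had been planned for log-scale values and were run on these scores. After 190 control probe sets were left out, 41155 were fitted with limma 3.58.1 in R 4.3.3 on the 35 BXD arrays, with Ahr, the vessel index, both, or 1 member as covariate, and p values adjusted over all transcripts by Benjamini-Hochberg. Pearson and Spearman tests used 100000 two-sided permutations in Python 3.11.15 with numpy 2.4.6. The limma code was also tested on simulated data. No 2 arrays were identical. The number of arrays limits the precision.

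The members and the 18 gene lists were chosen with earlier results of these data known. Named genes were Ahr, the members, at most 4 genes of each list by size of r, the 3 transcripts outside the members most like each, the 5 with the lowest p against Ahr, and the genes between Ahr and Meox2. Where both parents, quantile normalization, median centring, ranks, a filter on dim transcripts, probe set means, muscle, a principal component, other indices or left-out strains served as alternatives, only that choice changed. Covariates from the macrophage and fibroblast lists were added after seeing the data. A list's brightest gene and its genes at background were named after their values were seen. The values of 1 listed gene are not reported here.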

Additional observations from a re-analysis of the deposited data

How the results depend on the processing

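The count of 0 transcripts called for Ahr by limma (3388 at an unadjusted p under 0.05) was also found in every other setting tried apart from 3. It was 3 when BXD69 was omitted and 1 when BXD95 was omitted (leaving out single strains gave 0 to 3). With the macrophage score as a covariate, an alternative chosen after seeing the data, it was 2. Adamts9 was among these 2, but it was chosen by its Ahr link, so this is a description and no test of it. Beside the index the count was 0 (2322 at the unadjusted p) in every alternative and without every single strain. The count for the vessel index was 1908 with the skeletal muscle list as a covariate and 451 with the macrophage list, against 1207, and ran from 992 to 1253 over left-out strains. The cause was not tested.

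Of the 10 genes, 9 were called for the index (5 of the 6 chosen by function, against 1.72% of all transcripts, while the choice by Ahr favours the other 4), 6 without the 2 farthest strains, 7 with the macrophage and 8 with the fibroblast score (also chosen after seeing the data), 8 with ranks, and 8 to 9 over single left-out strains. Of the 39 pairs, 6 were called, 10 with both parents included, 2 with the macrophage list as a covariate, and 5 to 9 over left-out strains, with 9 without BXD69. The share over pairs of all transcripts was not computed. The 6 genes chosen by function gave 5 with an unadjusted p under 0.05 against Ahr, and 4 to 6 over left-out strains. The r of Ahr with the index stayed positive, at 0.35 to 0.54 over the alternatives and 0.42 to 0.56 over left-out strains.

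Of 379 values for single genes, 363 kept their direction and, where there was a test, their side of the threshold, 9 lost a call, 2 gained one and 5 changed sign. Those 5 were not past the threshold. Vegfa with the index was at -0.20 without the 2 strains farthest by the index (BXD56 and BXD85) and -0.00293 with an index from Pecam1 and Cdh5. Cdh5 with Ahr beside the index was at 0.11 with ranks and 0.00773 with the fibroblast score. It was at 0.15 without the 2 strains farthest by Ahr (BXD96 and BXD89). The calls lost for the index were those of Kitl, Flt1 and Tek without the 2 farthest strains, Flt1 and Tek with the index from Pecam1 and Cdh5, Meox2 and Tek with the macrophage score, and Tek with ranks and with the fibroblast score. Tek lost its call for the index without any 1 of BXD43, BXD45, BXD51, BXD56, BXD61, BXD64, BXD80, BXD85, BXD87, BXD89, BXD92, BXD96 and BXD97, and its r over all single left-out strains ran from 0.45 to 0.63. One array per strain limits all of these values, and pooled RNA hides the spread among mice.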
